A study of Homo sapiens with 22 samples.

Results

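Jun, a subunit of the transcription factor AP-1, was followed across the late step of PMA treatment in K562 cells, from 6 to 72 h. All regions of the authors' Jun count table on chromosomes 1 to 22 and X were used, and 131947 of 137719 passed the filter on low counts. The comparison used 4 of the 22 libraries, 2 at 6 h and 2 at 72 h, and the 2 libraries of 0 h served to separate the late step from the early one. Within these regions, 580 were gained and 2348 were lost in the late step only.

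K562 is a human leukaemia line of wild-type genotype per its label, and all 6 Jun libraries came from it. The groups differed only in the time spent in 25 nM PMA (0, 6 or 72 h), a phorbol ester given here to drive the line toward megakaryocytes. Cells were fixed with formaldehyde, and the sample titles read CNR, which is taken to mean CUT&RUN, where a nuclease guided by an antibody frees DNA beside the bound protein. Libraries against H3K27ac, CTCF and Rad21 from the same time points (Rad21 at 0 and 72 h only) were used beside Jun. The labels do not say whether replicates were separate cultures, so p-values measure only the spread between these libraries.

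Jun proteins bind DNA as dimers with each other or with Fos proteins. Phorbol esters activate protein kinase C, which acts through the ERK and JNK kinases to raise AP-1 activity within hours, and the 7-base site of AP-1 is named TRE after this response. AP-1 often binds distal enhancers, which carry acetylated lysine 27 of histone H3 (H3K27ac) when active. CTCF is an insulator protein, and Rad21 is a subunit of cohesin, the ring that CTCF halts at loop anchors.

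Jun counts in regions totalled 4766421 and 5531183 in the 6 h libraries and 17245043 and 18883962 in the 72 h libraries, so the late libraries were deeper. Per region the median count was 13 and 15 in the early pair and 67 and 75 in the late pair. Of all counts, the share on the mitochondrial chromosome was 21.3% and 18.1% at 6 h and 9.07% and 8.58% at 72 h. Replicates correlated across regions, which are not independent, at 0.883 at 6 h and 0.97 at 72 h (Pearson's r of log2 CPM). Consensus Jun peaks, called in both replicates, numbered 18636 at 6 h and 79947 at 72 h. As a check of the cell type, the highest H3K27ac level at each of 6 K562 marker genes at 0 h ranged from 42.5 to 166 CPM (counts scaled to depth, per 1000000). At 6 lymphoid marker genes with a region the median was 10.5 CPM, but CD2 reached 75.3. At 5 fibroblast and epithelial marker genes the median was 9.5 CPM, but KRT8 reached 51.8. At 5 megakaryocyte marker genes with a region the values ranged from 0.923 to 110 CPM. Their median of 54.8 was near the 69.5 of the K562 genes, so the check did not separate the K562 set from the megakaryocyte set.

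Across all regions, edgeR called 34216 at 72 against 6 h, or 25.9% of those tested, at an adjusted p-value under 0.05. Of these, 16913 were higher at 72 h (12.8%) and 17303 were lower (13.1%), and over all regions the log2 fold change had a median of 0.03. The even split depended on the scaling. Scaling to total counts gave 30289 higher and 7632 lower with a median of 0.39, and factors based on the regions where all 6 Jun libraries had a peak (shared-peak factors) gave 44748 higher and 5156 lower with a median of 0.64. Directions below are therefore relative to TMM factors, which set the typical region to no change. The number called fell to 12754 without replicate 1 of 72 h and to 10641 without replicate 2 of 72 h, which leaves that time point with a single library assumed to vary like the others.

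A late gain was defined as a region called higher at 72 against 6 h, not called at 6 against 0 h and within 0.5 on the log2 scale there, whose late step also differed from its early step at an adjusted p-value under 0.05. A late loss was the same with the sign turned. The 580 late gains were 0.44% of tested regions and the 2348 late losses 1.78%. Because Jun values chose these regions, their Jun levels are given as a description with no test. Both counts depended on single libraries. Late gains numbered 310 and 287 without replicate 1 or 2 of 0 h, 256 and 121 without replicate 1 or 2 of 6 h, and 129 and 114 without replicate 1 or 2 of 72 h. Late losses numbered 1308 without replicate 2 of 0 h, 1321 and 1547 without replicate 1 or 2 of 6 h, and 1280 and 856 without replicate 1 or 2 of 72 h. Total counts scaling gave 1170 gains and 1177 losses, among which were 545 of the 580 gains and 1175 of the 2348 losses.

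**Figure D1:**
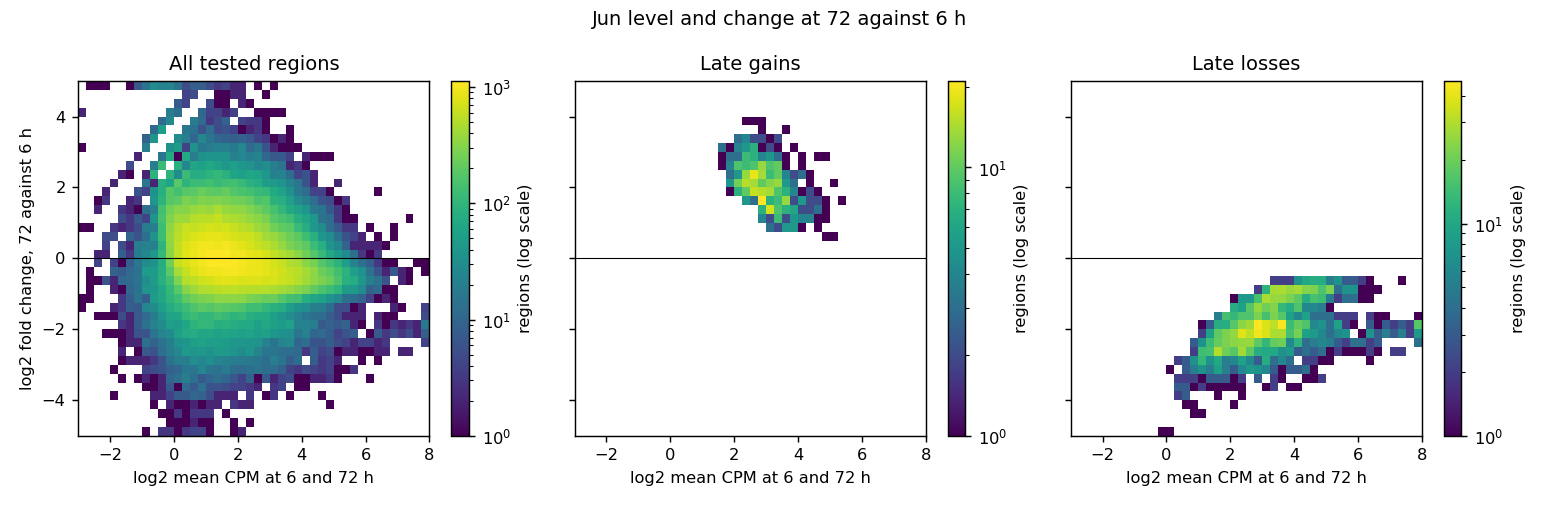
Jun level (log2 of the mean CPM at 6 and 72 h, x axis) against log2 fold change at 72 against 6 h (y axis), with the number of regions in each square in colour on a log scale, for all 131947 tested regions, the 580 late gains and the 2348 late losses; values past an axis are drawn at its edge. Over all levels the regions centre near 0.03, the gains near 2.09 and the losses near -1.97, and the losses reach far higher levels than the gains. The centre of all regions falls at high levels. In the column from 4.0 the fullest square, of 440 regions, starts at -0.5, and in the column from 5.0 that of 153 regions starts at -0.75.

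Late gains seldom lay at gene starts, but 13 promoter windows of RefSeq (from 250 bases before to 50 bases after a gene start, GRCh38.p14) overlapped one. The windows were searched for the TRE (TGAGTCA or TGACTCA, the same site on either strand), which was found in 7 of the 13. In 6 it lay within the 250 bases before the start, and these are printed to show which gene starts gained Jun late beside a consensus AP-1 sequence. Each runs 5′ to 3′ on the strand of its gene and ends at the base before the start, with the TRE in capitals.
SORBS2, chr4:185933129-185933378, minus strand: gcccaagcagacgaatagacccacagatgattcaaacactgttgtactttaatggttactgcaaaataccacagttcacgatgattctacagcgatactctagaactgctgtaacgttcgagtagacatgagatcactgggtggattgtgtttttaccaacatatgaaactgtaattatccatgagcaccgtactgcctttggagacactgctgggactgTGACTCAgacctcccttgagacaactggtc
C4orf51, chr4:145679896-145680145, plus strand: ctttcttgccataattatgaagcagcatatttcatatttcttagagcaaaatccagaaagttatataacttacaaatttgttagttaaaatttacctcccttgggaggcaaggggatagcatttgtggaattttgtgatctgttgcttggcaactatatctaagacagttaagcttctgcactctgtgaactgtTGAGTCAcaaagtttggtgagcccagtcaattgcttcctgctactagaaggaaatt
LOC105374051, chr3:115437364-115437613, plus strand: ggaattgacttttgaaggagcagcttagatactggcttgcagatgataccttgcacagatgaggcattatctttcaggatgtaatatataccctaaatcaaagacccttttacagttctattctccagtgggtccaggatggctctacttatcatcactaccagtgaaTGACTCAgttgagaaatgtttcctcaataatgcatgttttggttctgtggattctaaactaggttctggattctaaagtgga
LOC124902174, chr9:68500685-68500934, minus strand: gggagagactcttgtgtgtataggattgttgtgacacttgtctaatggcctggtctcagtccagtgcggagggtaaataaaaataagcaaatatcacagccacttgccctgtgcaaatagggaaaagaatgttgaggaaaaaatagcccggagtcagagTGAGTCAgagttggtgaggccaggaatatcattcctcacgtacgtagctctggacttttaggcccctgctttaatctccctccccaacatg
LOC101927950, chr6:5695273-5695522, minus strand: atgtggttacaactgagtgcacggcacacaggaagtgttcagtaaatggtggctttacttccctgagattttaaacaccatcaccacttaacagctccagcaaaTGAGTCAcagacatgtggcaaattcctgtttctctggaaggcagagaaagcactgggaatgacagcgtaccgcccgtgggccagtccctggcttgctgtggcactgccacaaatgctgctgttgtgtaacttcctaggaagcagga
LOC107985355, chr1:227966761-227967010, plus strand: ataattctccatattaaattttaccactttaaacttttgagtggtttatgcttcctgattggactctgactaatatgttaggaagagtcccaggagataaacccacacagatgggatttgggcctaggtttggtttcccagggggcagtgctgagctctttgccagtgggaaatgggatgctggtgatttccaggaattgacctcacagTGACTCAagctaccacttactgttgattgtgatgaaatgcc

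Of these 6 gene starts, that of SORBS2, an adaptor protein of the actin cytoskeleton, changed most. Values are raw counts, in which the late libraries are also deeper. Its Jun region held 12 and 13 counts at 0 h, 7 and 6 at 6 h, but 278 and 358 at 72 h, a log2 change of 3.42 (SE 0.34) at 72 against 6 h. The region at C4orf51 held 7 and 8 counts at 6 h but 122 and 159 at 72 h. At LOC105374051, an uncharacterised gene like the others named LOC, counts came to 10 and 7 at 6 h, then 244 and 256 at 72 h. At LOC124902174 they were 12 and 20, then 372 and 350. At LOC101927950 they were 18 and 15, then 220 and 256, and at LOC107985355 17 and 18, then 209 and 273. In all 6, both late libraries lay far above both early ones in counts, and the log2 fold changes scaled for depth ranged from 1.60 to 3.42.

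The other gene starts with a late gain included those of SVIL, MICAL2 and ZBTB7C. SVIL, which encodes the actin-binding protein supervillin, had 16 and 16 counts at 6 h but 216 and 265 at 72 h. MICAL2, an enzyme that oxidises actin, had 36 and 40 at 6 h and 393 and 420 at 72 h. ZBTB7C, a zinc finger gene, had 11 and 9 at 6 h and 237 and 261 at 72 h. None of these 3 windows held a TRE in the 250 bases before the start.

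The TRE share of 53.8% at late gains can be read beside other promoter windows. It was 13.8% of the 261 windows at late losses, 7.63% of the 12057 windows that overlapped any tested Jun region and 4.92% of all 34961 windows. The CRE (TGACGTCA, bound by Jun dimers with ATF proteins) was in 0 of 13 windows at gains, 1.15% at losses, 4.34% at tested regions and 1.85% of all windows. A GATA site (AGATAA or TTATCT) was in 23.1%, 3.45%, 6.94% and 10.3% of these windows, in the same order. None of these motifs contains another. With 13 windows the share at gains is imprecise, and the windows describe gene starts, which are few among the gains.

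Before the late step, late gains were at the level of a typical region. Their median Jun level was 3.34 and 3.14 CPM in the 0 h libraries, 2.94 and 2.73 CPM at 6 h, and 12.4 and 12.3 CPM at 72 h. The medians at 0 and 6 h lay at the level of all tested regions, for which they were 2.9 and 2.85 CPM at 0 h and 3.16 and 2.91 at 6 h. The log2 fold change had a median of 2.09, with quartiles of 1.68 and 2.51. A consensus Jun peak overlapped 8.28% of late gains at 0 h, 2.76% at 6 h and 99.7% at 72 h. The gained regions were wide, with a median of 851 bp against 488 bp for all tested regions. How the authors drew the regions is not given in the sources used here. At 6 h a late gain held a median of only 13 and 15 counts, so a low early level was measured with large counting error.

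Late gains were mainly away from gene starts. On the chromosomes with start positions, 3.58% lay within 1 kb of a start, against 10.8% of all tested regions. A further 61.9% lay elsewhere in a gene span and 34.5% outside any. They were spread over the chromosomes, from 1 of 3119 tested regions on X to 1.09% of those on chromosome 21.

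The 8 late gains with the largest log2 fold changes, by the rule for named regions, all had fewer than 3 CPM in each 6 h library. The first was in TENM2, the gene of a teneurin cell adhesion protein, at chr5:168226792-168227418 (GRCh38). It also overlapped LOC124901128, and the nearest annotated gene start, 481 bases away, was that of LOC124901128. It held 5 and 5 counts at 0 h, 3 and 4 at 6 h, but 241 and 256 at 72 h. The log2 change was 3.96 (SE 0.40). The second was in CACNA1E, the pore subunit of a voltage-gated calcium channel, at chr1:181353432-181354044. It held 6 and 7 counts at 0 h, 5 and 4 at 6 h, but 262 and 358 at 72 h, with a log2 change of 3.91 (SE 0.37). The definition of a late gain keeps 0 and 6 h close, and the rule for naming keeps 6 and 72 h apart.

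In SLCO3A1, an organic anion transporter gene, the region chr15:92050401-92051058 had 0.904 and 0.545 CPM at 6 h and 9.23 and 10.8 CPM at 72 h. In MUC16, a cell surface mucin gene, the region chr19:8938371-8939026 had 0.904 and 1.09 CPM at 6 h and 14 and 12.1 CPM at 72 h. LPP encodes a focal adhesion protein, and its region chr3:188286039-188286686 rose from 0.904 and 0.727 CPM to 9.28 and 8.92 CPM. These 3 regions were at low levels in each of the 4 libraries of 0 and 6 h. KATNIP, which encodes a protein that interacts with the microtubule-severing enzyme katanin, had 0.452 and 1.09 CPM at 6 h and 9.61 and 8.45 CPM at 72 h at chr16:27689450-27690105. TRIO, a guanine nucleotide exchange factor, had 2.26 and 1.09 CPM at 6 h and 17.2 and 18.7 CPM at 72 h at chr5:14420060-14420608. The last of the 8 was in LOC107984788, at chr15:69758704-69759593, with 2.26 and 1.45 CPM at 6 h and 21.4 and 21 CPM at 72 h. Each of the 8 kept its call at 72 against 6 h under every alternative scaling, filter, tool and left-out library in which it was tested.

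The late gains with the highest level at 72 h began from a measurable level. The highest was at chr22:22033399-22034282, in the span of the immunoglobulin lambda locus and of the pseudogene PRAMENP. It had 14.2 and 11 CPM at 0 h, 13.3 and 12.5 CPM at 6 h and 58.6 and 56.6 CPM at 72 h, a log2 change of 2.16 (SE 0.21). A region 14033 bases from LAMC3, a laminin chain gene, at chr9:130994283-130995141 had 21.7 and 17.8 CPM at 6 h and 56.8 and 56 CPM at 72 h. A second CACNA1E region, chr1:181395289-181396815, had 7.46 and 6.9 CPM at 6 h and 57 and 46.3 CPM at 72 h, with a log2 change of 2.85 (SE 0.23). The region chr15:21271589-21273136 in LOC105370714 had 17.2 and 12.5 CPM at 6 h and 48 and 47.7 CPM at 72 h. These 4 were chosen among the late gains by their level at 72 h alone, and a late gain is higher at 72 h by definition.

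**Figure D2:**
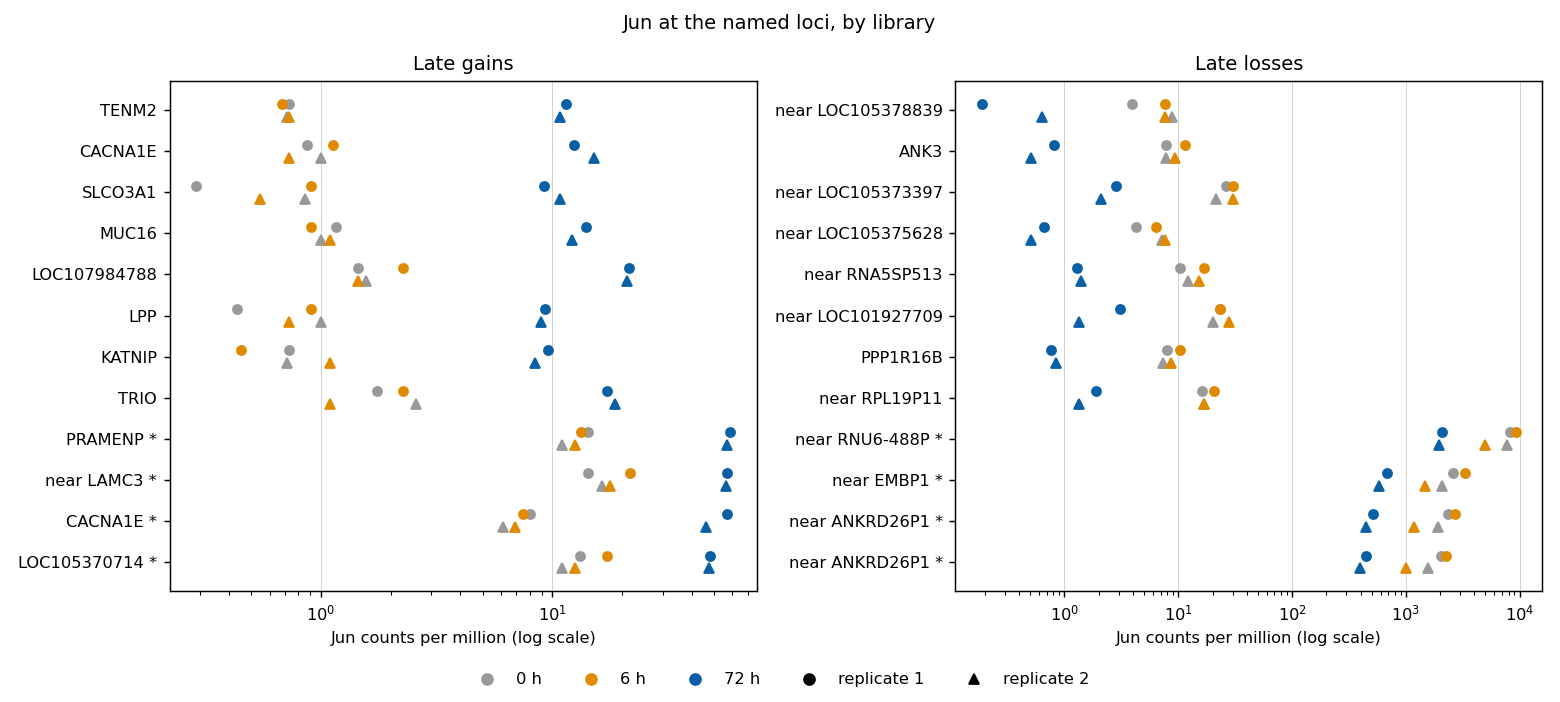
Jun CPM (x axis, log scale) in each of the 6 libraries for the 12 late gains and 12 late losses chosen by rule, named by the gene whose span they overlap or the nearest gene; colours are time points, shapes are replicates and an asterisk marks the regions chosen for their level. At the gains the 0 and 6 h libraries sit together and the 72 h libraries apart to the right, which the choice of late gains favours. At the 4 losses of highest level the 2 replicates of 6 h differ from each other.

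Several genes held more than 1 late gain. Among protein-coding genes, the only ones counted here, CACNA1E had most, with 6 of its 54 tested regions, spread from 181351645 to 181503574 on chromosome 1. Of those 54, 31 were called higher and 0 lower, against 12.8% and 13.1% of all regions. CNIH3, an auxiliary subunit of AMPA receptors, had 4 late gains among 50 regions, of which 29 were higher and 0 lower. ETS1, a transcription factor gene, had 4 among 23, with 17 higher and 0 lower. FMNL2, a formin that elongates actin filaments, had 4 among 39, with 23 higher and 0 lower. AFAP1, which encodes an actin filament-associated protein, had 3 among 25 with 17 higher and 0 lower, and 2 other protein-coding genes also had 3 late gains. Regions of 1 gene are neighbours and not independent, and the genes were picked for these counts.

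Within ETS1 the 4 late gains were alike in size. Their counts at 6 h ranged from 7 to 16 per library and at 72 h from 276 to 426. Their log2 fold changes were 2.80, 2.44, 2.64 and 2.72 from the lowest coordinate to the highest. The CACNA1E gains were more varied, from 2.12 to 3.91 and from 10.1 to 51.6 mean CPM at 72 h. In AFAP1 the smallest of the 3, at 0.89, lost its call without replicate 1 of 72 h (0.88) or replicate 2 of 72 h (0.91).

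H3K27ac was measured in other libraries, so its values did not choose the late gains. H3K27ac regions overlapping a late gain had a median level of 0.341 and 0.316 CPM at 0 h, 1.26 and 0.984 CPM at 6 h, and 9.88 and 10.4 CPM at 72 h. Acetylation there was low in all 4 early libraries and high in both late ones. Of 583 such regions, 573 (98.3%) rose at 72 against 6 h and 0 fell, against 33.2% and 30.7% of all 94325 tested H3K27ac regions (edgeR, adjusted p-value under 0.05). The median log2 fold change was 3.06, with quartiles of 2.26 and 3.81, against 0.02 for all. A consensus H3K27ac peak overlapped 1.72% of late gains at 0 h, 2.59% at 6 h and 81.4% at 72 h, whereas these shares were 19.1%, 16.8% and 34.9% of all tested Jun regions. In 77.8% of late gains the H3K27ac peak was present at 72 h alone, against 16.0% of all. H3K27ac regions so low at 0 and 6 h can pass the filter on counts mainly through the 72 h libraries, which leaves little room for a fall. The 0 that fell, and in part the 98.3% that rose, therefore describe these regions and are not a test.

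At the named gains the acetylation values were of the same kind. H3K27ac over the first CACNA1E region had 2.38 and 1.62 CPM at 6 h and 78.3 and 87.4 CPM at 72 h, a log2 change of 5.41 (SE 0.17). At TENM2 it had 1.12 and 0.295 CPM at 6 h and 32 and 36.1 CPM at 72 h, a log2 change of 5.72 (SE 0.25, edgeR adjusted p-value 1.1e-15). At TRIO it went from 0.699 and 0.492 CPM to 20.5 and 20.4 CPM. Levels at 72 h were lower at LPP, with 5.5 and 5.83 CPM, and at MUC16, with 5.03 and 4.99 CPM. The region near LAMC3 changed least of the 12, with a log2 change of 1.76 (SE 0.25, adjusted p-value 1.2e-06).

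**Figure D3:**
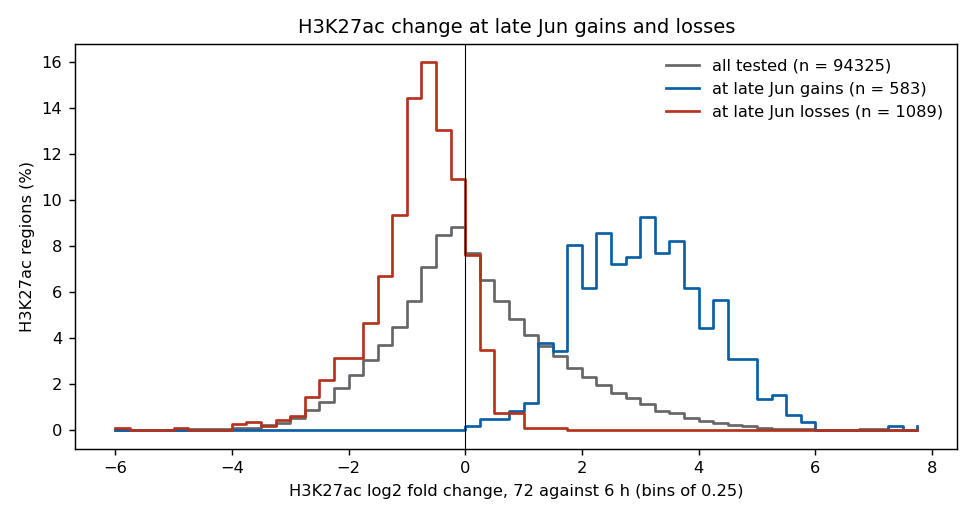
H3K27ac log2 fold change at 72 against 6 h (x axis, bins of 0.25) for all tested H3K27ac regions and for those overlapping late Jun gains or losses, as a percentage of each set (y axis). The regions at gains centre on 3.06, those at losses on -0.72 and all regions on 0.02.

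CTCF and Rad21 were less often measurable at late gains. CTCF regions overlapped 111 of the 580. Of 116 such regions, 8 rose and 0 fell at 72 against 6 h, with a median log2 fold change of 1.47, against 0.415% and 1.74% of all 57354 tested CTCF regions. The median CTCF level there was 1.51 and 1.07 CPM at 0 h, 2.24 and 1.21 CPM at 6 h and 4.79 and 5.28 CPM at 72 h. So low an early level left little room for a fall, and the 0 that fell is not a test. Rad21 had no 6 h libraries and was compared at 72 against 0 h. Of 328 Rad21 regions at late gains 252 (76.8%) rose and 0 fell, with a median of 1.94, against 15.5% and 7.99% of all. The median Rad21 level there was 1.37 and 1.43 CPM at 0 h and 5.41 and 5.12 CPM at 72 h. With so low a level at 0 h, a fall of Rad21 had little room here too. A CTCF consensus peak overlapped 2.76% of late gains at 72 h.

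Late losses differed from the gains in level, width and position. Their median Jun level was 13.4 and 12.3 CPM at 0 h, 16.3 and 11.4 CPM at 6 h, and 4.14 and 3.61 CPM at 72 h. The log2 fold change had a median of -1.97 and quartiles of -2.37 and -1.35. They were narrow, with a median of 398 bp, and 61.1% lay outside gene spans, against 31.1% of all tested regions. Near gene starts lay 10.2%, a share close to the 10.8% of all. Jun peaks did not vanish from them: a consensus peak overlapped 60.3% at 0 h, 57.1% at 6 h and 57.0% at 72 h, so a late loss was often a smaller share of counts at a peak that was still called in the deeper late libraries.

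A large part of the losses lay close together. In 17 bins of 1 Mb with 10 or more late losses each there were 913 of the 2348 (38.9%), among 2023 tested regions. Chromosome 1 from 122 to 125 Mb held 117, 186 and 192 in its 3 bins, and bins on chromosomes 10, 13, 1 and 4 followed with 43 to 56 each. Most of these bins lie at or near centromeres, whose sequence is repeated, so that reads can be split among copies. How such reads were treated is not given in the sources used here. The 6 h replicates differed at these 913 regions, with medians of 20.8 and 9.99 CPM, against 17.6 and 13.4 CPM at 0 h and 4.02 and 3.42 CPM at 72 h. The bins took 8.59% and 3.94% of the counts on these chromosomes at 6 h and 2.25% and 1.96% at 72 h, and the part of this shift in the calls was not tested. Without these bins 1435 late losses remained.

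The 6 h replicates also differed at the 4 late losses with the highest level at 6 h. That at chr3:93470288-93470886 had 8310 and 7810 CPM at 0 h, 9250 and 4970 CPM at 6 h, and 2080 and 1970 CPM at 72 h, a log2 change of -1.81 (SE 0.32). With loess offsets, which follow the level, this value turned to 0.24. The region chr1:125178882-125180711 had 3320 and 1460 CPM at 6 h and 688 and 580 CPM at 72 h. Both regions on chromosome 16, chr16:46398490-46401605 and chr16:46389630-46391248, also differed between the 6 h replicates, with 2730 and 1190 CPM and 2260 and 1010 CPM. At 72 h they had 517 and 446 CPM and 447 and 396 CPM. The 3 regions on chromosomes 1 and 16 lost their calls with loess offsets.

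Another share of the losses overlapped CTCF. Outside the 17 bins, 620 late losses (26.4% of all) overlapped a CTCF consensus peak at some time, with a median log2 fold change of -2.32 and a width of 380 bp. Their Jun medians were 14.3 and 11.8 CPM at 6 h and 3.03 and 2.39 CPM at 72 h. Of the tested regions with such a peak outside the bins 5.87% were late losses, against 1.1% of all regions outside them. Over all late losses a CTCF consensus peak at 72 h overlapped 45.1%, against 7.43% of all tested regions. The share of Jun counts in regions with a CTCF peak was 21.3% and 20.4% at 0 h, 22.3% and 16.6% at 6 h, but 11.7% and 11.1% at 72 h. Both this share and the mitochondrial share given above were lower at 72 h than at 6 h. At 0 h they ranked the replicates in opposite order, with mitochondrial shares of 24% and 27.7%. The part of either share in the late losses was not tested.

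CTCF itself was measured at 1813 of the 2348 late losses. The median CTCF level over regions at late losses was 29.5 and 16.9 CPM at 6 h and 18.7 and 16.5 CPM at 72 h, so the 72 h libraries lay near 1 of the 6 h replicates. Of 1835 such CTCF regions, 1 rose and 247 (13.5%) fell at 72 against 6 h, with a median log2 fold change of -0.16, against 0.415% and 1.74% of all (edgeR). For Rad21 at 72 against 0 h, of 2137 regions 565 (26.4%) rose and 26 fell, with a median of 0.40, against 15.5% and 7.99% of all.

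A further 487 late losses outside the bins (20.7%) overlapped an H3K27ac peak and no CTCF peak. They were wider, with a median of 738 bp, and changed less, with a median log2 fold change of -1.05, from 18.3 and 20.2 CPM at 6 h to 9.42 and 9.05 CPM at 72 h. The last 328 (14.0%) overlapped neither and fell from 7.68 and 6.54 CPM to 1.82 and 1.65 CPM. Over all late losses, 1035 overlapped a tested H3K27ac region. Of 1089 such H3K27ac regions 43 rose and 668 (61.3%) fell, with a median log2 fold change of -0.72, against 33.2%, 30.7% and 0.02 over all tested. Their median H3K27ac level was 12.4 and 10.2 CPM at 6 h and 5.5 and 6.34 CPM at 72 h.

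**Figure D4:**
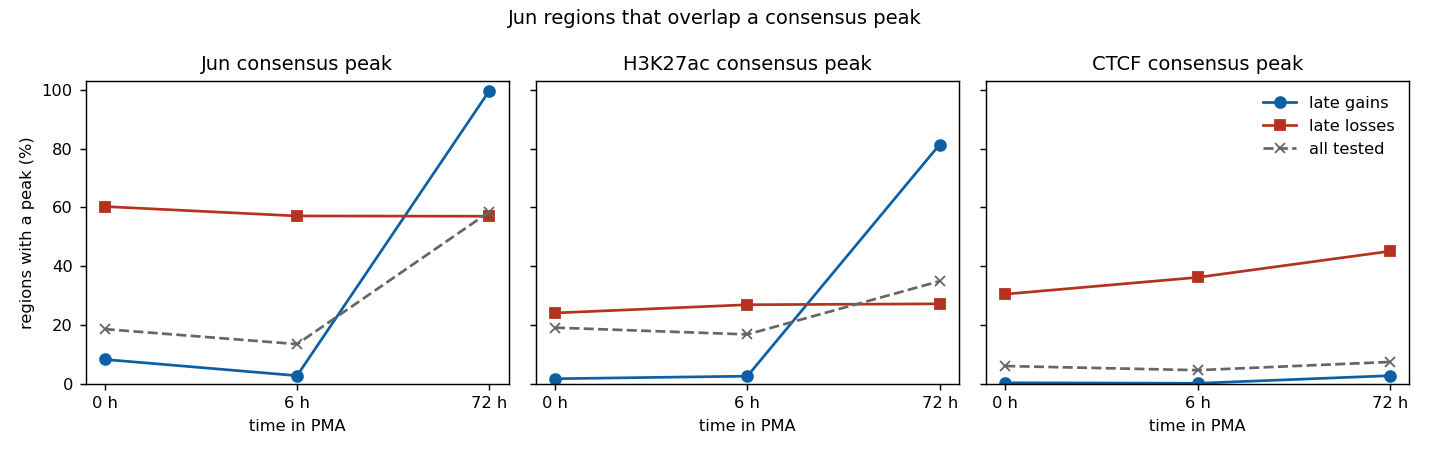
Percentage of late gains, late losses and all tested Jun regions (y axis) that overlap a consensus peak of Jun, H3K27ac or CTCF at 0, 6 and 72 h (x axis). At gains the Jun share goes from 2.76% at 6 h to 99.7% at 72 h and the H3K27ac share from 2.59% to 81.4%, while at losses the CTCF share is 36.2% and 45.1%.

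The 8 late losses with the smallest log2 fold changes were 232 to 381 bp wide, and no tested H3K27ac region overlapped any of them. The first, chr1:88349940-88350320, lay 112568 bases from LOC105378839 and held 27 and 62 counts at 0 h, 34 and 42 at 6 h, but 4 and 15 at 72 h. The log2 change was -4.15 (SE 0.47). In ANK3, the gene of the membrane scaffold ankyrin-G, the region chr10:60120646-60120877 held 51 and 51 counts at 6 h and only 17 and 12 at 72 h, despite the deeper late libraries. That is 11.5 and 9.27 CPM against 0.805 and 0.507 CPM, a log2 change of -3.97 (SE 0.34). In PPP1R16B, a regulatory subunit of protein phosphatase 1, the region chr20:38897715-38898046 had 10.4 and 8.72 CPM at 6 h and 0.758 and 0.845 CPM at 72 h. The choice of late losses fixes this order of the time points.

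The highest of these 8 at 6 h was at chr2:4091898-4092257, 4132 bases from LOC105373397, with 30.5 and 30.3 CPM at 6 h and 2.84 and 2.11 CPM at 72 h. At chr2:118637035-118637378 the values were 23.3 and 28.2 CPM and then 3.08 and 1.35 CPM. At chr5:31002233-31002551, near the pseudogene RPL19P11, they were 20.8 and 16.9 CPM and then 1.89 and 1.35 CPM. At chrX:129423214-129423551 they were 16.7 and 15.3 CPM and then 1.28 and 1.39 CPM, and at chr8:87990876-87991256 they were 6.33 and 7.63 CPM and then 0.663 and 0.507 CPM. A CTCF consensus peak at 6 h overlapped each of the 8 except chr8:87990876-87991256. At 72 h such a CTCF peak overlapped only those near LOC105373397 and RPL19P11. A Jun consensus peak was absent at 0, 6 and 72 h from the regions in ANK3 and PPP1R16B and from chrX:129423214-129423551. The rest had a Jun consensus peak at 6 h but not at 72 h. Each of the 8 kept its call at 72 against 6 h under every alternative in which it was tested.

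No protein-coding gene held as many late losses as CACNA1E held gains. The most in the span of any protein-coding gene was 3, in 5 genes. AFF1, a scaffold of the super elongation complex, had 3 among 31 tested regions, of which 12 were lower and 0 higher. RPTOR, a component of the kinase complex mTORC1, had 3 among 25, with 10 lower and 0 higher. RSPH14, a radial spoke protein gene, had 3 among 22, with 9 lower and 3 higher. GSE1 had 3, from -2.57 to -0.85. All 3 regions tested in DUX4 were late losses, but this gene lies in a repeat array whose copies share reads, and its values are uncertain. The 3 AFF1 losses had log2 fold changes from -1.33 to -1.19. At the one of highest level, chr4:86935886-86936644, counts came to 149 and 199 at 6 h, then 322 and 366 at 72 h, which is 34.9 mean CPM against 15.4. Calls were lost for GSE1 (-0.69 without replicate 1 of 72 h), RPTOR (-0.83 without replicate 2 of 72 h) and RSPH14 (-0.87 without replicate 2 of 72 h) at 1 region each. With shared-peak factors they were lost at 2 GSE1 regions (-0.24 and -0.50), 1 RPTOR region (-0.35) and 1 RSPH14 region (-0.49).

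The genes of the pathway and of both cell fates were described by lists, each counting the Jun regions within the gene spans and 10 kb on either side. The megakaryocyte transcription factor list held 5 late gains and 1 late loss among 163 regions, where late gains were 0.44% and late losses 1.78% of all tested regions. Of the gains 4 were those of ETS1. The remaining one was in RUNX1, a regulator of megakaryocyte development, at chr21:34822828-34823445, with 11 and 14 counts at 6 h but 207 and 215 at 72 h. In this list 31 regions (19.0%) were higher and 14 (8.59%) lower at 72 against 6 h, with a median of 0.12. ETS1 with its flanks gave 20 of these 31, among 27 tested regions with 0 lower, so the lean of this list rested mostly on 1 gene. For the 18 of 20 platelet genes with regions, 22 of 121 regions (18.2%) were higher and 14 (11.6%) lower, with a median of 0.12 and no late gain or loss. Of these 22, ITGA2 with its flanks gave 11, among 18 tested regions with 0 lower. With shared-peak factors these lists had 73 higher and 0 lower, and 48 higher and 1 lower. For the 23 erythroid genes 2 of 129 (1.55%) were higher and 31 (24.0%) lower, with a median of -0.28. The median of all regions was 0.03, with 12.8% higher and 13.1% lower. Under total counts scaling the erythroid list had 10 higher and 9 lower, and with shared-peak factors 31 and 4, so its split depended on the scaling.

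ALAS2, which encodes the first enzyme of haem synthesis in erythroid cells, had the smallest log2 fold change of the 4 erythroid regions named. Its region chrX:55025803-55026182 had 47.3 and 54.5 CPM at 0 h, 96.7 and 74.7 CPM at 6 h and 11.7 and 9.43 CPM at 72 h. It was 380 bp wide and overlapped a CTCF consensus peak at 0, 6 and 72 h, as many late losses did, though it was not itself a late loss. The log2 fold change at 72 against 6 h was -3.02 (SE 0.21, edgeR adjusted p-value 1.71e-08) and stayed between -3.20 and -2.41 under every alternative. Among erythroid genes a region near EPB42, a protein of the red cell membrane skeleton, moved up, from 3.39 and 1.64 CPM at 6 h to 8.24 and 6.13 CPM at 72 h. Its call was lost without replicate 2 of 6 h (1.07) or replicate 1 of 72 h (1.32). The regions chosen for TFR2 and EPOR overlapped the starts of the neighbours MOSPD3 and SWSAP1, with log2 fold changes of -0.91 and -0.90. The call near TFR2 was lost without either 72 h library (-0.91 and -0.90), and that near EPOR without replicate 2 (-0.83). With shared-peak factors both calls were lost, at -0.29 each.

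Among megakaryocyte genes the region of highest level in ETS1 had 2.49 and 2.73 CPM at 6 h and 16.6 and 18 CPM at 72 h (adjusted p-value 1.41e-06). A region 803 bases from the start of THBS1, the adhesive platelet protein thrombospondin-1, had 1.81 and 2.18 CPM at 6 h and 8.52 and 7.9 CPM at 72 h. It overlapped the neighbour LOC124903470 and rose by a log2 change of 2.02 (SE 0.38, adjusted p-value 0.000526). At CD9, a platelet tetraspanin, values were 4.29 and 7.09 CPM, then 11.5 and 12.9 CPM, with a log2 change of 1.07 (SE 0.26) that lost its call without replicate 2 of 72 h (0.99). RUNX3 was high at 6 h, with 38.6 and 45.6 CPM against 10.9 and 9.56 at 0 h, and fell to 20.8 and 21.6 CPM at 72 h. The log2 change was -0.99 (SE 0.18, adjusted p-value 0.000476), and the call was lost with shared-peak factors (-0.38). RUNX1, at its late loss, and GATA2 had log2 fold changes of -0.86 and -0.80, and both lost their calls without either 72 h library (-0.84 and -0.88 for RUNX1, -0.77 and -0.84 for GATA2) and with shared-peak factors (-0.24 and -0.19).

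**Figure D5:**
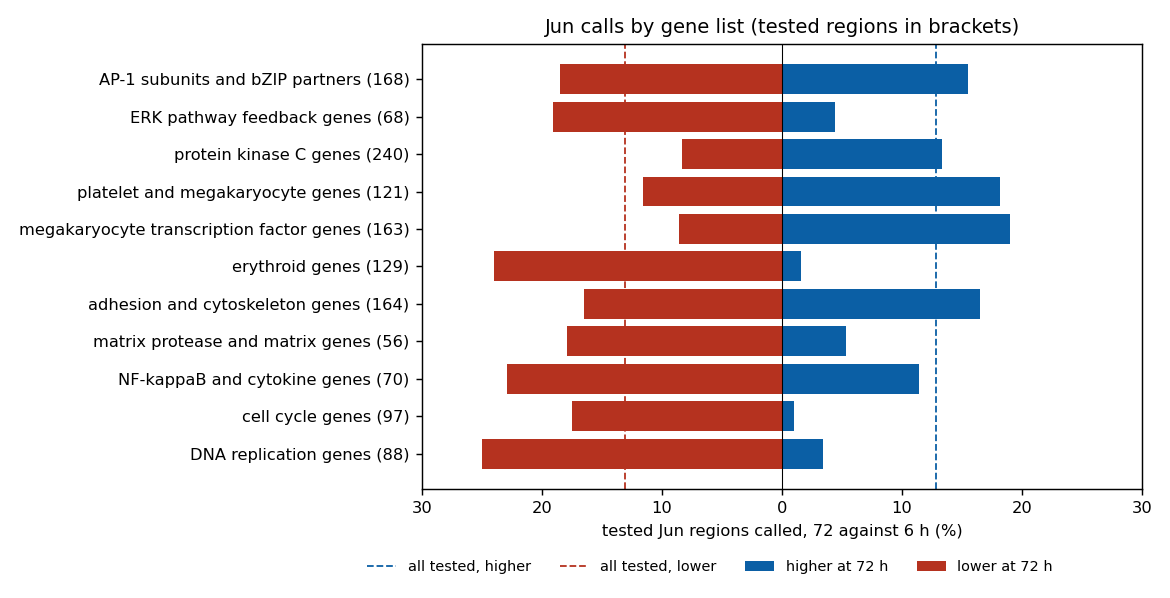
Percentage of tested Jun regions called higher (blue, right) or lower (red, left) at 72 against 6 h for each gene list, with the number of tested regions in brackets; dashed lines mark all tested regions, at 12.8% and 13.1%. Erythroid, cell cycle and DNA replication genes have few higher calls, and megakaryocyte genes more higher than lower, both relative to TMM factors. In the 2 megakaryocyte lists many of the higher calls come from 1 gene each, ETS1 (20 of 31) and ITGA2 (11 of 22). With shared-peak factors every list has more higher than lower calls.

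Of the 16 genes of AP-1 subunits and their bZIP partners, 26 of 168 regions (15.5%) were higher and 31 (18.5%) lower, with a median of -0.03. With total counts scaling 41 were higher and 7 lower, and with shared-peak factors 57 and 3, so the direction of the split depended on the scaling. MAFF, a small Maf partner, had 20.3 and 21.1 CPM at 6 h and 8.9 and 8.37 CPM at 72 h at its start, a log2 change of -1.26 (SE 0.20, adjusted p-value 8.74e-05). FOSB, a Fos subunit, had 70.8 and 72.5 CPM at 0 h, 30.1 and 34.5 CPM at 6 h and 16.9 and 15.1 CPM at 72 h, and its call was lost without replicate 2 of 72 h (-0.94) and with shared-peak factors (-0.41). NFE2, a megakaryocyte and erythroid bZIP factor, moved up from 4.07 and 5.63 CPM to 10.1 and 9.3 CPM. That call was lost without replicate 1 of 6 h (0.78) or either library of 72 h (0.93 and 1.04). BACH2, a repressor that shares sites with AP-1, held the one late gain of this list, with 10 and 12 counts at 6 h but 152 and 179 at 72 h. The list also had 2 late losses, near FOSB (-0.91) and in BACH1 (-0.99), whose values under other scalings were not read.

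The protein kinase C list had 32 higher (13.3%) and 20 lower (8.33%) among 240 regions, with a median of 0.09, and 95 higher and 2 lower with shared-peak factors. Its late gain was in PRKCE, an isoform that phorbol esters bind, at chr2:45755801-45757046, with 16 and 18 counts at 6 h but 367 and 346 at 72 h. Its 2 late losses were in PRKCQ (-1.15) and PRKCZ (-0.87), and the latter call was lost with shared-peak factors (-0.26). At the PRKCQ region a Jun consensus peak was called at 72 h only, in the deeper libraries, although its scaled level was lower then. The ERK feedback list, of phosphatases and inhibitors induced by ERK, had 3 higher (4.41%) and 13 lower (19.1%) among 68. The split turned with the scaling, to 8 higher and 3 lower with total counts and 20 and 2 with shared-peak factors. The list had no late gain and 2 late losses, near DUSP5 and near SPRED3 (-0.80), and the value near SPRED3 under other scalings was not read. That near DUSP5, a nuclear ERK phosphatase, went from 25.5 and 32.3 CPM at 6 h to 8.76 and 10.4 CPM at 72 h. DUSP4, a related phosphatase, went from 2.94 and 5.09 CPM to 11.3 and 10.2 CPM, a log2 change of 1.39 (SE 0.28, adjusted p-value 0.00118).

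Adhesion and cytoskeleton genes had 27 higher and 27 lower (16.5% each) among 164 regions, against 12.8% and 13.1% of all. With total counts scaling there were 41 higher and 8 lower, and with shared-peak factors 60 and 4. A second LPP region, chr3:188272312-188273448, was a late gain from 3.84 and 1.45 CPM to 21.2 and 19.6 CPM. CD44, the hyaluronan receptor, had 3.77 and 3.14 CPM at 0 h, 21.9 and 29.6 CPM at 6 h and 8.48 and 10.5 CPM at 72 h, a log2 change of -1.44 (SE 0.21, adjusted p-value 4.66e-05). ITGAV, an integrin chain, was a late loss at 35.9 and 46.2 CPM, then 19.2 and 18.9 CPM, and a region near VCL was another (-0.59). The value near VCL under other scalings was not read. A region near CDKN1B with a change of like size (-0.58) turned to 0.03 with shared-peak factors. Matrix and protease genes, of which 12 of 15 had regions, had 3 higher (5.36%) and 10 lower (17.9%) among 56. Their 1 late loss was in PLAT (-0.78), whose value under other scalings was not read. Total counts scaling turned the split to 8 higher and 1 lower, and shared-peak factors to 15 and 0. The region chosen for TGFB1 overlapped the neighbours B9D2 and TMEM91 and had a log2 fold change of -0.99, whose call was lost with shared-peak factors (-0.38).

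NF-kappaB and cytokine genes had 8 higher (11.4%) and 16 lower (22.9%) among 70 regions. With total counts scaling there were 13 higher and 9 lower, and with shared-peak factors 20 and 5, so this split too depended on the scaling. CXCL3, a chemokine gene, had a region with 4.36 and 7.14 CPM at 0 h, 19.4 and 29.8 CPM at 6 h and 7.86 and 7.57 CPM at 72 h. It fell by 1.68 on the log2 scale in the late step (SE 0.23, adjusted p-value 2.55e-05). RELA, the p65 subunit of NF-kappaB, fell from 21.2 and 23.6 CPM to 9.23 and 9.34 CPM at its start. The list's late gain was near CCL3, a chemokine gene, at chr17:36081632-36082483 within CCL3-AS1, with 4 and 4 counts at 6 h but 166 and 195 at 72 h. It also had 2 late losses, near CXCL2 (-2.10) and near CXCL3 (-2.59), each with at most 34 counts in every library. No Jun consensus peak overlapped either of them at 0, 6 or 72 h.

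Cell cycle and DNA replication genes had few higher regions. In the cell cycle list 1 of 97 (1.03%) was higher and 17 (17.5%) lower, and in the replication list 3 of 88 (3.41%) were higher and 22 (25.0%) lower, with medians of -0.29 and -0.42. With total counts scaling the cell cycle list had 12 higher and 4 lower, and the replication list 5 higher and 8 lower, and with shared-peak factors there were 17 and 1, and 10 and 3. The replication list held 2 late losses, both near RRM2 (-0.84 and -0.79), whose values under other scalings were not read. The second of them had a Jun consensus peak at 72 h only. GINS2, a subunit of the replicative helicase, had 3.84 and 3.27 CPM at 6 h and 0.71 and 1.31 CPM at 72 h, and its call was lost without replicate 1 of 72 h (-1.42). MCM4, another helicase subunit, had 18.1 and 16.2 CPM, then 8.43 and 8.58 CPM (adjusted p-value 0.00114), and its call was lost with shared-peak factors (-0.39). PCNA, the sliding clamp of DNA polymerase, had 12.4 and 16.9 CPM, then 7.86 and 7.99 CPM, and lost its call without replicate 2 of 6 h (-0.65) or either library of 72 h (-0.88 and -0.91) and with shared-peak factors (-0.28). CDKN1A, the cell cycle inhibitor p21, was a late loss, from 40.7 and 34.5 CPM to 22.6 and 18.7 CPM, whose call at 72 against 6 h was lost without replicate 2 of 72 h (-0.74) and with shared-peak factors (-0.26).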

How the data were processed

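Per the file headers, the Jun, H3K27ac, CTCF and Rad21 tables hold raw counts of reads, 1 row per region and 1 column per library, as deposited by the authors. The peak lists, 1 per library, hold the authors' −log10 q-values, used only to read positions of peaks as called. The submitters' processing notes name Trim Galore 0.4.3, BWA 0.7.17, SAMtools 1.9, deepTools 3.0.1, MACS2 and bedtools 2.26 and the builds hg19 and hg38, without their roles. Contig names and positions in the tables fit GRCh38, starts count from 0 and were raised by 1, and gene names and promoter windows came from RefSeq (GRCh38.p14). Windows on chromosome 8 were not used here, so its regions are left out of counts by gene start. No genome was used, so region sequences were not read.

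Each antibody's whole table was fitted with edgeR 4.0.16 (filterByExpr by group, TMM, glmQLFit and glmQLFTest over all its time points, no replicate block), with Benjamini-Hochberg adjustment over all tested regions and calls at 0.05. Results were then limited to chromosomes 1 to 22 and X. SE is the size of the log2 change over the root of edgeR's F statistic. CPM were computed from the deposited counts with TMM factors. On simulated data with 200 regions changed 4-fold among 127454 at 72 against 6 h, 173 were recovered, 4.42% of calls were false, and 56 met the full late definition. Consensus peaks of replicate 1 overlapped one of replicate 2 by at least 1 bp, with GenomicRanges 1.54.1, and overlaps between antibodies used the same rule.

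Named regions were, among late gains and losses with mean CPM at or above the median and no overlap between 6 and 72 h, the 8 most changed, 1 per nearest gene. To these were added, without those conditions, the 4 of highest level at 72 h (gains) or 6 h (losses). Named genes were the 5 protein-coding genes with most late gains or losses in their span, with ties taken alphabetically. Up to 4 per list were added by the size of change at their region of highest level. RUNX1, PRKCE, BACH2 and CCL3 late gains and the promoter windows were named outside this rule after their values were seen. The late losses at FOSB, BACH1, SPRED3, PRKCQ, VCL, PLAT, CXCL2, CXCL3 and RRM2 also fell outside it. Single values of these gains and losses under the alternatives were not read. The comparison, its members and the 11 gene lists were chosen with earlier results of these data known. Alternatives were other scalings, filters and fits, thinned 72 h libraries, a replicate block, left-out libraries and DESeq2 1.42.0.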

Additional observations from a re-analysis of the deposited data

How the results depend on the processing

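Of 98 named regions called at 72 against 6 h, 59 kept their call and direction under all alternatives in which they were tested, 31 lost the call in at least 1 left-out library and 32 under at least 1 other scaling. Leaving out single libraries gave 10641 to 34580 calls, 5362 to 17554 higher, 5279 to 17084 lower, 114 to 310 late gains and 856 to 1644 late losses. A mean count of at least 50 gave 21825 calls, 9748 lower and 1084 late gains. DESeq2 gave 17205 calls, 6735 higher, 10470 lower, 142 late gains and 1331 late losses. Total counts scaling gave 30289 higher, 7632 lower, 1170 late gains and 1177 late losses. Factors from the regions where all Jun libraries had a peak (shared peaks) gave 44748, 5156, 2454 and 728 in the same order, and loess offsets gave 899 late gains. Without the limit on the early fold change there were 1875 late gains and 4003 late losses. The cause of these shifts was not tested.

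The share of calls that were higher was 49.4%, against 79.9% with total counts, 89.7% with shared peaks, 55.3% with loess offsets and 39.1% with DESeq2. H3K27ac at late gains lay 3.03 above the median of all tested regions on the log2 scale, 2.62 with the gains of total counts scaling and 2.82 to 3.16 without single libraries. At late losses the same difference was -0.74, and -0.92 to -0.51 without single libraries. Values that turned were the chromosome 3 loss near RNU6-488P (0.24 with loess offsets), DUSP1 (0.07 with shared peaks, 0.03 with loess offsets), PRKCI (0.13) and CDKN1B (0.03), both with shared peaks. Thinning the 72 h libraries to the 6 h depth gave 25404 calls, 502 late gains and 1945 late losses.

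With replicate number as a block there were 31838 calls, 566 late gains and 2353 late losses. The numbers do not pair the samples: same-numbered Jun libraries deviated together with correlations of 0.05, 0.01 and 0.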

Other observations

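Each region of the Jun table also carries a label in the authors' deposited table, and these labels did not follow the direction of change of the counts in the same rows. Of 6703 regions labelled upLate, 3373 were called higher and 3253 lower at 72 against 0 h, and 96 were late gains and 474 late losses. Of 118214 labelled static, 30212 were called higher and 26853 lower. Regions labelled upLate were thus called more often than static ones, but in both directions. The labels were therefore not used.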
